A study of Sus scrofa with 36 samples.

Results

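The border zone (BZ) is the living muscle that surrounds an infarct. The question here is how its RNA response in the newborn pig heart at 1 week after coronary ligation (Late) differed from its response at 1 day (Early). The value studied for each gene is a difference of responses: Young Late BZ over Young Late Sham, minus Young Early BZ over Young Early Sham, on the log2 scale. Young pigs were operated at 2 days of age. The Late pigs were 9 days old and the Early pigs 3 days old at harvest. The 12 libraries used are 3 Young Late BZ, 3 Young Late Sham, 3 Young Early BZ and 3 Young Early Sham, out of 36 libraries in the series. Each came from a separate Yorkshire-landrace pig. BZ pigs had branches of the left anterior descending and left circumflex arteries tied for good, and gave tissue from the border zone. Sham pigs had surgery without that infarct and gave tissue from the anterior wall of the left ventricle. No transgene or cell line is involved. All pigs received Ketoprofen and Enrofloxacin after surgery per the labels. The same fit also held Old pigs, operated at 14 days of age, and the infarct zone (IZ) of the infarcted pigs.

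As background, an infarct heart passes from an early phase, in which dying muscle releases signals and white blood cells enter, to a repair phase, in which macrophages clear debris and fibroblasts turn into myofibroblasts. Myofibroblasts secrete collagens, matricellular proteins that tune how cells hold on to matrix, and enzymes that crosslink the new fibres. In newborn mammals heart muscle cells can still divide for a short time after birth, so cell-cycle genes are also followed in such hearts. In tissue RNA, fewer cells of a type and less RNA per cell cannot be told apart.

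Depth ran from 8.1 to 39.8 M counts over the 12 libraries (median 25.1 M). Young Early BZ replicate 2 stood apart, with 10.1% of its counts from mitochondrially encoded genes, against 24.1% to 44.1% in the other 11 libraries. It also had the lowest median correlation with the other libraries (0.905) and relatively more counts on short genes. Young Late Sham replicate 2 was the shallowest library. RNA integrity (RIN) ran from 6.5 to 7.2 in Late BZ and from 6.6 to 7.6 in Late Sham, but from 7.4 to 7.6 in Early BZ and from 6.4 to 6.9 in Early Sham. The difference of the RIN differences was therefore -1.13, and its part in the results was not tested beyond the fit with RIN as a covariate given below. All 6 Early libraries were in library preparation batch 1, with 1 Late BZ and 1 Late Sham library. All 6 Late pigs had counts on Y-linked genes, while 3 Early pigs (BZ replicate 2, Sham replicates 1 and 2) had none. CPM of single genes here is counts scaled to library size by TMM. Summed CPM of cell markers, here and below, were scaled to the total counts of each library without TMM. The TMM factor ran from 0.578 in Early BZ replicate 2 to 0.975 in Late BZ replicate 3. The sums are therefore not on the scale of the single genes, and their ranges also carry the spread of these factors. Summed CPM of 5 heart muscle cell markers in the table were high in every group, at 51200 to 55300 in Late BZ, 55700 to 65800 in Late Sham, 41700 to 62900 in Early BZ and 47900 to 65200 in Early Sham, as the tissue label states. In the atrial marker list, 3 of 5 genes were in the table, and their sum was 1360 to 2810 CPM in Late BZ, 82.5 to 314 in Late Sham, 162 to 1440 in Early BZ and 369 to 613 in Early Sham. MYL4 alone made up nearly all of that sum, and its values as a single gene are given below. The part of that shift in the results was not tested.

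The genes whose response was most clearly larger at 1 week than at 1 day include THBS4, CILP, COL8A2, CHAD and SULF2, which encode proteins of the extracellular matrix or act on it. Of 14537 genes tested, 34 had a difference of responses with an adjusted p under 0.05 in edgeR's quasi-likelihood test (0.234% of genes), 20 of them above 0 (0.138%) and 14 below 0 (0.0963%). At an unadjusted p under 0.05 there were 2450 genes. The Late response itself called 2135 genes (14.7%), 1259 higher and 876 lower in Late BZ than in Late Sham. The Early response called 130 genes (0.894%), 94 higher and 36 lower (0.248%) in Early BZ than in Early Sham. A symbol was known for 16 of the 20 genes above 0 and 11 of the 14 below 0, and the plot of their paired responses shows them all.

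The counts of calls rested on single libraries. The 2135 Late calls became 3225 without Early BZ replicate 2, 678 and 1131 without Late BZ replicates 2 and 3, and 710 and 1368 without Late Sham replicates 2 and 3. The 130 Early calls became 945 and 235 without Early BZ replicates 1 and 3, 11, 39 and 11 without Early Sham replicates 1, 2 and 3, and 79 without Late BZ replicate 3. The 34 called differences became 1687 without Young Early BZ replicate 2, 505 without Late Sham replicate 1, 69 without Late BZ replicate 1 and 57 without Early BZ replicate 3. There were 26 without Early BZ replicate 1, 20 without Early Sham replicate 3, 19 without Late Sham replicate 3, 17 without Early Sham replicate 2 and 15 without Late BZ replicate 3. There were 12 without Early Sham replicate 1, 7 without Late BZ replicate 2 and 5 without Late Sham replicate 2. All 34 genes were among the 1687, and all 34 kept their direction without each of the 12 libraries. Counts of list members called without a library, given below, are to be read beside these totals over all genes. The 5 genes that kept their call in each of these 12 fits were THBS4, CILP, COL8A2, CHAD and SULF2, and the same 5 kept it with RIN as a covariate, where 8 genes were called. None of these 5 was called when the 12 Young BZ and Sham libraries were fitted alone, where 1 gene without a symbol was. There the edgeR adjusted p was 0.105 for THBS4, 0.0507 for CILP, 0.105 for COL8A2, 0.308 for CHAD and 0.251 for SULF2. The fit called batch 1 alone here left out the Young BZ and Sham libraries of batch 2. It kept 1 Late BZ library (replicate 3) and 1 Late Sham library (replicate 2, the shallowest) of the Young pigs, assumed to vary like the others. The Old and IZ libraries of every batch also stayed in it and shared the estimate of spread. There the difference was 4.42 for THBS4, 5.39 for CILP, 6.58 for COL8A2, 4.29 for CHAD and 2.47 for SULF2. Batch 2 holds no Young Early library and gives no value.

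**Figure D1:**
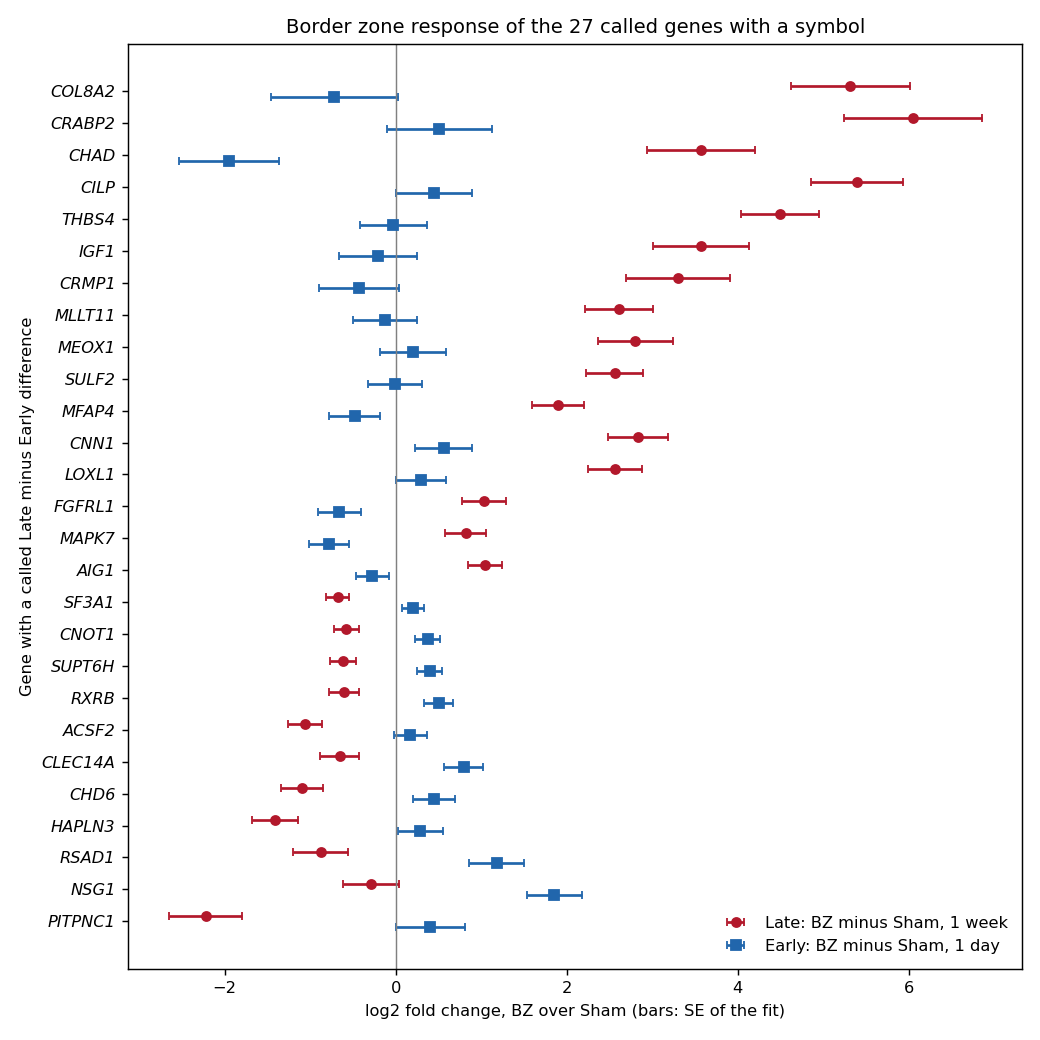
Border zone responses of the 27 called genes with a symbol, as log2 fold change of BZ over Sham at 1 week (red circles) and at 1 day (blue squares), with bars for the SE of the fit (n = 3 libraries per group). The 16 genes at the top are higher in Late BZ than in Late Sham and between -1.95 and 0.56 at 1 day. The 11 at the bottom have a fold change below 0 at 1 week and above 0 at 1 day. For NSG1 the Late BZ and Late Sham libraries overlapped.

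THBS4 encodes thrombospondin 4, a matricellular glycoprotein of tendon and stressed heart. It had 99.2, 632 and 362 CPM in the 3 Late BZ libraries and 15.3, 17.2 and 15.99 CPM in Late Sham. In Early BZ it had 39.8, 26.7 and 48.9 CPM, and in Early Sham 51.9, 31.7 and 34.0 CPM. Every Late BZ library was above every other library, and the Early groups overlapped. Its log2 fold change was 4.50 ± 0.46 (SE) at 1 week and -0.03 ± 0.40 at 1 day, a difference of 4.52 ± 0.59 (edgeR adjusted p = 0.00025).

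CILP encodes cartilage intermediate layer protein, a matrix protein that cardiac fibroblasts secrete. It had 33.8, 179 and 152 CPM in Late BZ, 3.05, 2.67 and 2.88 CPM in Late Sham, 12.6, 15.7 and 18.4 CPM in Early BZ and 16.2, 9.09 and 8.94 CPM in Early Sham. The Late groups were far apart and the Early groups overlapped. The difference of responses was 4.95 ± 0.67 on the log2 scale (edgeR adjusted p = 0.000286). Part of it lay between the sham groups: the log2 fold change of Late Sham over Early Sham was -1.98 ± 0.49 (adjusted p = 0.0154).

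COL8A2 encodes a chain of type VIII collagen, a network-forming collagen of vessel walls and basement membranes. It had 1.83, 7.78 and 7.97 CPM in Late BZ and 0.150, 0.133 and 0.137 CPM in Late Sham, where it had 6 counts in the 3 libraries together. In Early BZ it had 0.296, 0.131 and 0.183 CPM, and in Early Sham 0.342, 0.210 and 0.481 CPM. Only the Late BZ libraries reached 1 CPM. Its difference of responses was 6.03 ± 1.06 (edgeR adjusted p = 0.00949), with 5.31 ± 0.70 at 1 week and -0.72 ± 0.74 at 1 day.

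CHAD encodes chondroadherin, a leucine-rich repeat protein that binds collagen and cell-surface integrins. It had 2.08, 12.0 and 6.72 CPM in Late BZ, 0.250, 1.33 and 0.480 CPM in Late Sham, 0.422, 0.696 and 0.587 CPM in Early BZ and 2.45, 0.946 and 3.30 CPM in Early Sham. Late BZ was above Late Sham in every library, while Early BZ was below Early Sham in every library. The responses were 3.57 ± 0.63 at 1 week and -1.95 ± 0.59 at 1 day (adjusted p = 0.088 at 1 day), which gave a difference of 5.51 ± 0.86 (edgeR adjusted p = 0.00269). CHAD lies on chromosome 12 at 26695148 to 26746682 on the minus strand, and ACSF2 overlaps it on the plus strand at 26713256 to 26765578. RSAD1 follows at 26764330 to 26772382 on the plus strand. The genome build and the strand setting of the counting are not given in the sources used here, so the values of these overlapping genes, of which ACSF2 and RSAD1 differed in the opposite direction to CHAD, are uncertain.

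SULF2 encodes an extracellular sulfatase that trims heparan sulfate chains and so alters the binding of growth factors. It had 31.5, 51.2 and 56.3 CPM in Late BZ, 9.24, 10.3 and 4.26 CPM in Late Sham, 11.8, 13.2 and 15.5 CPM in Early BZ and 17.5, 10.6 and 12.6 CPM in Early Sham. Late BZ stood above all other libraries. The difference was 2.56 ± 0.46 (edgeR adjusted p = 0.00949), from a response of 2.56 ± 0.34 at 1 week and 0.00 ± 0.32 at 1 day.

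**Figure D2:**
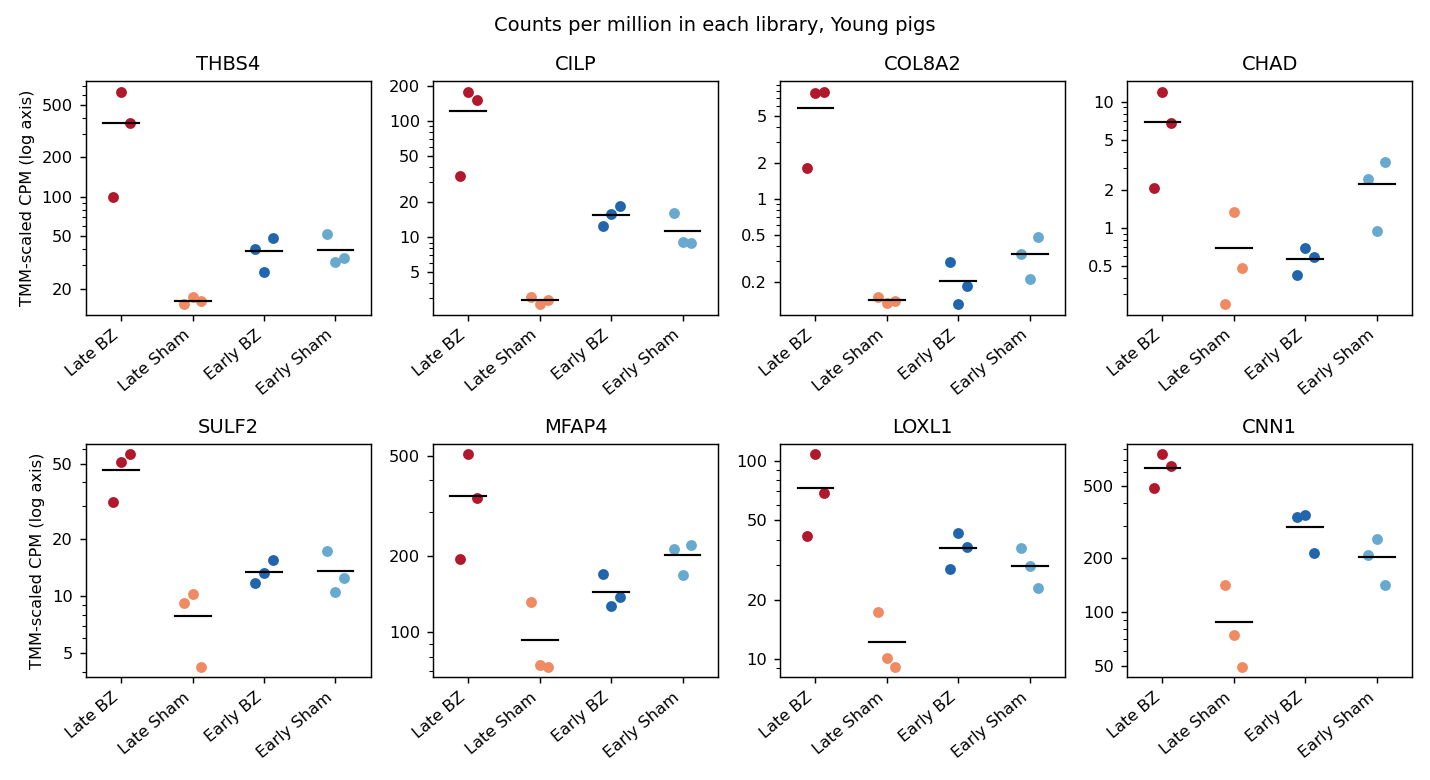
TMM-scaled CPM on a log axis for 8 called genes of matrix, fibroblasts and smooth muscle, with a point for each library and a line at the group mean (n = 3 per group). In each panel the 3 Late BZ libraries lie above the 3 Late Sham libraries, and for CILP, for example, Late BZ runs from 33.8 to 179 CPM against 2.67 to 3.05 in Late Sham.

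MFAP4, a microfibril-associated protein of elastic fibres, had 195, 507 and 340.3 CPM in Late BZ, 132, 74.5 and 73.2 CPM in Late Sham, 169.6, 127 and 138 CPM in Early BZ and 215, 169 and 223 CPM in Early Sham. Its difference was 2.38 ± 0.42 (edgeR adjusted p = 0.00949). LOXL1, a lysyl oxidase that crosslinks elastin and collagen, had 42.0, 108 and 69.2 CPM in Late BZ, 17.3, 10.1 and 9.20 CPM in Late Sham, 28.5, 43.5 and 36.9 CPM in Early BZ and 36.2, 29.5 and 22.8 CPM in Early Sham. For LOXL1 the Late BZ libraries overlapped the Early BZ libraries, while Late Sham lay below Early Sham. The LOXL1 difference was 2.27 ± 0.42 (edgeR adjusted p = 0.0123). CNN1, the smooth muscle actin-binding protein calponin, had 486, 750.0 and 645 CPM in Late BZ, 140.3, 74.1 and 49.4 CPM in Late Sham, 335, 343 and 211 CPM in Early BZ and 207, 254 and 141 CPM in Early Sham. Its difference was 2.27 ± 0.47 (edgeR adjusted p = 0.038). The calls of MFAP4, LOXL1 and CNN1 were lost without Late BZ replicate 2 or Late Sham replicate 2. LOXL1 also lost it without Early Sham replicate 1 or Late Sham replicate 3, and CNN1 without these, Early Sham replicate 2, Early BZ replicate 3 or Late BZ replicate 3.

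CRABP2 and IGF1 also rose at 1 week. CRABP2, which carries retinoic acid to its nuclear receptor, had 2.92, 18.1 and 7.90 CPM in Late BZ, 0.150, 0 and 0.206 CPM in Late Sham (6 counts together), 0.465, 2.74 and 1.32 CPM in Early BZ and 0.342, 0.893 and 1.99 CPM in Early Sham. Its difference was 5.54 ± 1.04 (edgeR adjusted p = 0.0123). IGF1, the insulin-like growth factor made by fibroblasts and macrophages among others, had 2.63, 9.83 and 4.85 CPM in Late BZ, 0.500, 0 and 0.755 CPM in Late Sham, 1.69, 5.26 and 3.08 CPM in Early BZ and 3.20, 2.36 and 6.05 CPM in Early Sham. For IGF1 Late BZ overlapped both Early groups, and Late Sham was the group that stood apart: Late Sham over Early Sham was -2.99 ± 0.57 (adjusted p = 0.00364), and Late BZ over Early BZ was 0.78 ± 0.45 (adjusted p = 0.305). The IGF1 difference was 3.77 ± 0.73 (edgeR adjusted p = 0.0179). Both calls were lost without Early Sham replicate 3, Late BZ replicate 2 or Late Sham replicate 2.

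The other 6 called genes with a symbol and a difference above 0 had values of 1.32 to 3.73. MEOX1, a homeobox factor tied to fibroblast activation in mouse hearts, had 9.73 ± 4.96 CPM in Late BZ and 1.47 ± 0.58 CPM in Late Sham, against 5.56 ± 1.67 CPM in Early BZ and 4.84 ± 1.43 CPM in Early Sham (SD, n = 3 each). MLLT11 had 127 ± 46.8 CPM in Late BZ and 20.5 ± 13.3 CPM in Late Sham, against 72.0 ± 30.1 CPM in Early BZ and 78.7 ± 22.6 CPM in Early Sham. For these genes too the low group was Late Sham. The others were CRMP1, a cytoskeletal adaptor of growing nerve fibres, at 3.73, FGFRL1, a fibroblast growth factor receptor without a kinase domain, at 1.69, the kinase gene MAPK7 at 1.60 and AIG1 at 1.32. Each of these 6 calls was lost without at least 6 of the 12 libraries in turn.

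All 20 genes above 0 were called higher in Late BZ than in Late Sham, where 8.66% of all genes were. In all 20 the Late BZ and Late Sham libraries did not overlap, against 18.2% of all genes with Late BZ on top. At 1 day none was called in either direction, and 15 of the 20 had a fold change below 0. The sham groups took part: 13 of the 20 were called lower in Late Sham than in Early Sham, where 4.65% of all genes were (9.18% in either direction). In 14 of the 20, Late BZ was called higher than Early BZ, where 3.57% of all genes were (3.23% lower, 6.8% in either direction). In single genes, Late BZ and Early BZ libraries did not overlap in 8.84% of all genes with Late BZ on top and in 8.32% with Late BZ below. These comparisons share libraries with the difference that chose the genes, so the counts describe where each difference lay.

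The 11 named genes with a difference below 0 had values of -2.63 to -0.88 on the log2 scale. NSG1, a protein of vesicle traffic in nerve cells, had 0.743, 1.43 and 1.47 CPM in Late BZ, 1.60, 1.73 and 1.17 CPM in Late Sham, 3.42, 4.18 and 2.60 CPM in Early BZ and 1.03, 0.630 and 1.17 CPM in Early Sham. It was the only one of the 14 called higher in Early BZ than in Early Sham (0.647% of all genes), at 1.86 ± 0.32 (edgeR adjusted p = 0.00506), and its difference was -2.14 ± 0.46 (adjusted p = 0.0386). CLEC14A, a lectin of endothelial cells, had 21.4, 24.5 and 23.1 CPM in Late BZ, 27.1, 46.9 and 35.2 CPM in Late Sham, 44.9, 61.4 and 45.4 CPM in Early BZ and 31.1, 27.2 and 29.2 CPM in Early Sham. Late BZ lay below Late Sham and Early BZ above Early Sham, and the difference was -1.45 ± 0.32 (edgeR adjusted p = 0.0486).

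HAPLN3, a link protein that holds proteoglycans on hyaluronan, had 32.3, 22.1 and 30.4 CPM in Late BZ, 51.6, 88.3 and 86.8 CPM in Late Sham, 42.5, 37.9 and 25.9 CPM in Early BZ and 27.7, 27.5 and 31.8 CPM in Early Sham. Here Late Sham was the high group and the other 3 groups overlapped. Its difference was -1.70 ± 0.38 (edgeR adjusted p = 0.0486). RXRB, a retinoid X receptor, was at -1.11 ± 0.24, with 19.7 ± 1.32 CPM in Late BZ and 30.0 ± 2.38 CPM in Late Sham, against 33.1 ± 12.8 CPM in Early BZ and 23.4 ± 1.99 CPM in Early Sham (SD, n = 3 each). The splicing factor gene SF3A1 was at -0.88, CNOT1, the scaffold of the complex that shortens mRNA tails, at -0.95, and SUPT6H, a histone chaperone that travels with RNA polymerase, at -1.01. CHD6, a chromatin remodeller, was at -1.55, PITPNC1, a lipid transfer protein, at -2.63, ACSF2, a mitochondrial acyl-CoA synthetase, at -1.23 and RSAD1 at -2.06. All 14 had a Late fold change below 0 and an Early fold change above 0, and in 7 the Early BZ libraries were all above the Early Sham libraries (8.01% of all genes, and 6.33% below). Of the 14, 12 were called lower in Late BZ than in Late Sham (6.03% of all genes), and 10 were called higher in Late Sham than in Early Sham (4.53%). In 7 of the 14, Late BZ was called lower than Early BZ (3.23% of all genes). None of the 11 with a symbol kept its call in all 12 fits with a library left out. Each lost it without 6 to 9 of the libraries.

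The matrix list as a whole leaned the same way. Of 35 extracellular matrix genes tested, THBS4 and CILP were called above 0 (0.138% of all genes), 29 had a positive difference (45.1% of all genes had), and the median was 0.70 on the log2 scale against -0.08 over all genes. At 1 week 24 of the 35 rose in Late BZ over Late Sham (8.66% of all genes) and none fell (6.03%). The median fold change was 1.42 (0.02 over all genes). At 1 day 2 rose (0.647% of all genes), COL8A1 and TNC, and the median was 0.74 (0.13 over all genes). Without Late BZ replicate 2 or without Late Sham replicate 2 the number that rose at 1 week was 15. The 2 that rose at 1 day became 7 and 4 without Early BZ replicates 1 and 2, 1 without Early BZ replicate 3, Early Sham replicate 2 or Late BZ replicate 3, and 0 without Early Sham replicate 1 or 3. The number with a called difference was 9 above and 1 below without Early BZ replicate 2, 6 above without Late Sham replicate 1 and 6 above without Late BZ replicate 1. Over all genes these fits called 1687, 505 and 69 differences.

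COL1A1 and COL3A1 rose at 1 week without a called difference. COL1A1, a chain of type I collagen, had 542, 1557 and 818 CPM in Late BZ, 334, 191 and 223 CPM in Late Sham, 423, 754 and 704 CPM in Early BZ and 379, 324 and 329.5 CPM in Early Sham. At both times every BZ library was above every Sham library. The fold change was 1.96 ± 0.37 at 1 week (edgeR adjusted p = 0.00106) and 0.87 ± 0.36 at 1 day (adjusted p = 0.206), and the difference was 1.09 ± 0.51 (adjusted p = 0.276). COL3A1, the type III chain, had a fold change of 1.58 ± 0.38 at 1 week (edgeR adjusted p = 0.00621), a call lost without Late BZ replicate 2 or Late Sham replicate 2, and a difference of 0.77 ± 0.52 (edgeR adjusted p = 0.461). TNC, the matricellular protein tenascin C of injured tissue, was already high at 1 day: 16.3, 85.2 and 63.1 CPM in Late BZ, 4.15, 4.13 and 1.85 CPM in Late Sham, 27.7, 23.8 and 115 CPM in Early BZ and 4.85, 6.41 and 3.51 CPM in Early Sham. Its Early call was lost without Early Sham replicate 1 or 3. Its difference was 0.55 ± 0.88 (edgeR adjusted p = 0.794). POSTN, the matricellular protein periostin of activated fibroblasts, was at -0.16 ± 0.79 (adjusted p = 0.947), with 1.97 ± 0.58 at 1 week and 2.13 ± 0.58 at 1 day. The TNC and POSTN intervals are wide, and neither shows equal responses.

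COMP, a cartilage matrix protein, and COL11A1, a minor fibrillar collagen chain, had differences as large as those of the called genes, at 7.41 ± 1.96 and 4.43 ± 1.08, without passing the test (edgeR adjusted p = 0.0883 and 0.0592). The largest fold change in the matrix list at 1 week was 5.39. Part of the COMP difference was therefore a fold change below 0 at 1 day. FMOD, the collagen-binding proteoglycan fibromodulin, was at 2.47 ± 0.64 (adjusted p = 0.0764). These 3 were chosen after their values were seen. SFRP2, a secreted modulator of Wnt signalling, had 160, 797 and 639 counts in Late BZ, 1, 0 and 0 counts in Late Sham, 9, 64 and 78 counts in Early BZ and 2, 6 and 5 counts in Early Sham. Both BZ groups were above their shams, and the difference did not pass the test (edgeR adjusted p = 0.0886).

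Among 27 genes of matrix crosslinking and turnover, LOXL1 alone was called above 0, and the median difference was 0.42. At 1 week 13 rose (8.66% of all genes) and 1 fell (6.03%). LOXL4 and TIMP1 were among the members that rose at 1 day (0.647% of all genes). The 13 became 5 without Late BZ replicate 2, where none fell, 7 without Late Sham replicate 2 and 8 without Late Sham replicate 3. The called differences became 4 above without Late Sham replicate 1, and 3 above and 1 below without Early BZ replicate 2. Over all genes they became 505 and 1687 in these fits. TIMP1, which inhibits matrix-degrading proteases, was called at both times: 49.2, 136 and 59.3 CPM in Late BZ, 19.6, 13.1 and 16.8 CPM in Late Sham, 89.5, 743 and 270.0 CPM in Early BZ and 45.0, 32.5 and 47.0 CPM in Early Sham. Its difference of -0.85 ± 0.82 was not called (edgeR adjusted p = 0.631), and without Early BZ replicate 2 it was 0.18. Its Late call was lost without Late BZ replicate 2 or Late Sham replicate 2, and its Early call without any Early Sham library in turn or without Early BZ replicate 2. The Early calls of the list numbered 0 without Early Sham replicate 1 or 2, 1 without Early Sham replicate 3 and 5 without Early BZ replicate 1.

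Among 21 fibroblast and myofibroblast genes, MFAP4, IGF1 and MEOX1 were called above 0, and the median difference was 1.25, with 17 members above 0. At 1 week 13 rose (8.66% of all genes) and 1 fell (6.03%). PDGFRA, the platelet-derived growth factor receptor that marks resting fibroblasts, was the member that fell (-1.87 ± 0.63). The 13 became 8 without Late BZ replicate 2. No member fell without Early Sham replicate 1 or 3, any Late BZ library in turn or Late Sham replicate 2, and 2 fell without Late Sham replicate 1 or Early BZ replicate 2. At 1 day none was called, and 3 rose without Early BZ replicate 1. The number with a called difference was 8 above and 1 below without Early BZ replicate 2, 6 above and 1 below without Late Sham replicate 1, 5 above without Late BZ replicate 1, and 0 without Late BZ replicate 2 or Late Sham replicate 2. It was 2 without Early Sham replicate 1, Early Sham replicate 2, Late BZ replicate 3 or Late Sham replicate 3, and 1 without Early Sham replicate 3. Over all genes, 1687 differences were called without Early BZ replicate 2, 505 without Late Sham replicate 1 and 69 without Late BZ replicate 1. Without TMM scaling, summed CPM of 5 fibroblast markers were 673 to 1990 in Late BZ and 332 to 514 in Late Sham. They were 577 to 958 in Early BZ and 401 to 507 in Early Sham. COL1A1 made up most of this sum in each BZ library, and PDGFRA, also among the 5, fell at 1 week. The part of that marker shift in the gene results was not tested. Of 16 smooth muscle and pericyte genes, CNN1 was the called one, and the median was 0.42. At 1 week 6 of them rose (8.66% of all genes) and 1 fell (6.03%). The 6 became 1 without Late BZ replicate 2, and 3 without Late BZ replicate 3 or Late Sham replicate 3. The 1 that fell was not called without any Late BZ library in turn, or without Late Sham replicate 2 or 3.

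**Figure D3:**
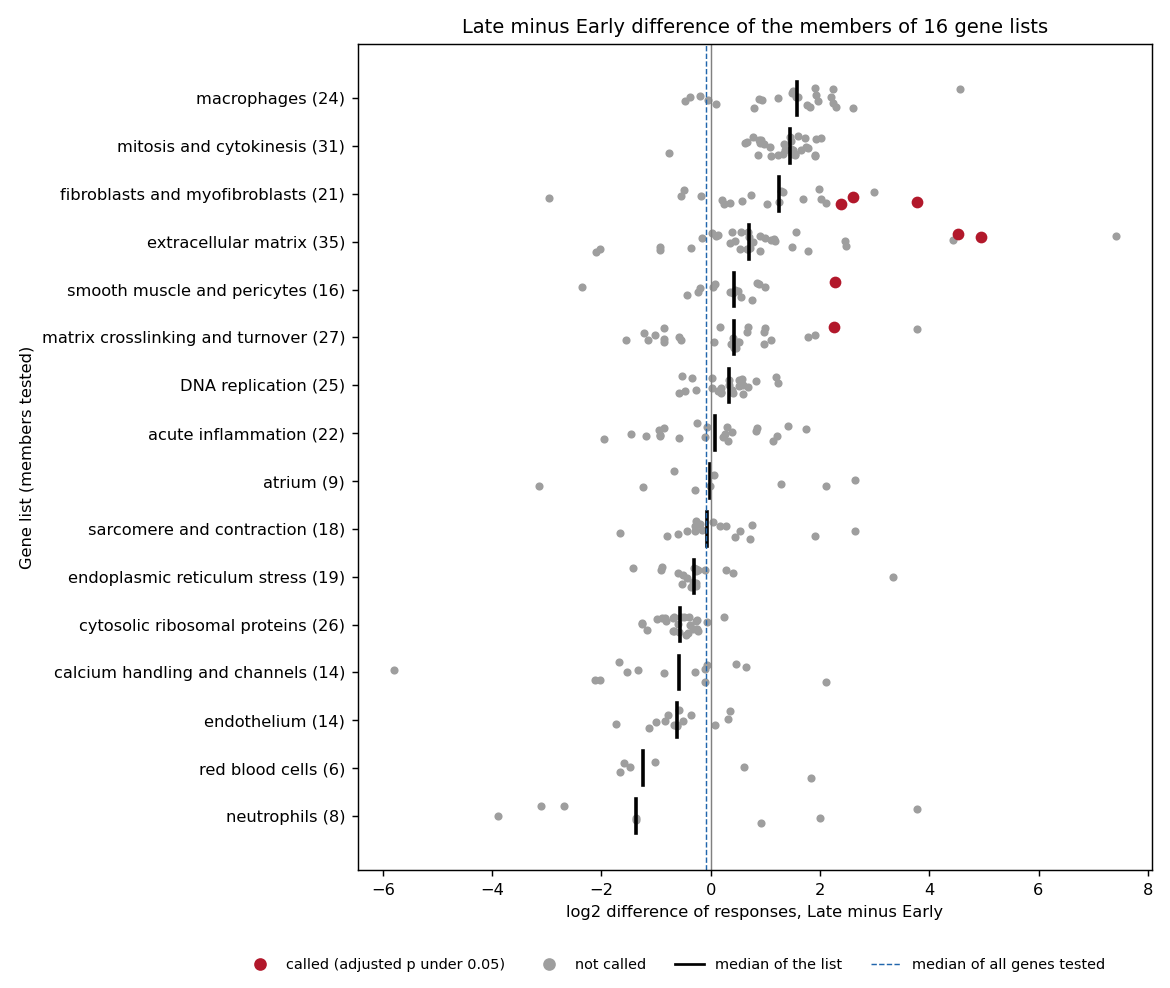
Difference of responses (log2, Late minus Early) of the members of 16 gene lists, with red points for called genes, grey points for genes not called, a black bar at the list median and a dashed line at the median of all genes tested. The lists with the highest medians are macrophages at 1.58, mitosis and cytokinesis at 1.46 and fibroblasts at 1.25, and the only called members are in the fibroblast, extracellular matrix, smooth muscle and crosslinking lists.

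Macrophage genes rose at 1 week, while their differences did not pass the test. Of 24 tested, 18 rose in Late BZ over Late Sham (8.66% of all genes) and 1, SPP1, rose in Early BZ over Early Sham. That Early call was lost without any Early Sham library in turn, Early BZ replicate 3, Late BZ replicate 3, or Late Sham replicate 2 or 3, and 3 members rose without Early BZ replicate 1. The median difference was 1.58, 20 members were above 0, and none was called, with 12 at an unadjusted p under 0.05 above 0 (7.58% of all genes). DESeq2 called 5. FCER1G, a signalling chain of Fc receptors on myeloid cells, had 11.7, 54.4 and 18.8 CPM in Late BZ, 4.30, 2.80 and 4.12 CPM in Late Sham, 8.79, 12.7 and 10.7 CPM in Early BZ and 10.7, 6.09 and 9.77 CPM in Early Sham. Late BZ stood above Late Sham and the Early groups overlapped, and the difference was 2.61 ± 0.63 (edgeR adjusted p = 0.0592). C1QB, a chain of complement C1q made by tissue macrophages, was at 2.29 ± 0.59 (adjusted p = 0.0764), with 71.8, 194 and 93.5 CPM in Late BZ, 23.2, 14.9 and 26.3 CPM in Late Sham, 51.1, 98.6 and 37.8 CPM in Early BZ and 69.2, 37.4 and 58.6 CPM in Early Sham. C1QB was called without Late Sham replicate 1, Early BZ replicate 2 or Late BZ replicate 1 (adjusted p = 0.0435, 0.0102 and 0.0467), and so was FCER1G (0.0322, 0.0174 and 0.0161). The list then held 3, 8 and 2 called members, while 505, 1687 and 69 differences were called over all genes. The sham level moved too. Without TMM scaling, summed CPM of 5 macrophage markers were 113 to 360 in Late BZ and 44.4 to 50.2 in Late Sham. They were 119 to 144 in Early BZ and 79 to 119 in Early Sham.

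Inflammatory genes showed no called difference. The median difference of 22 acute inflammation genes was 0.08, with 11 above 0 and 11 below 0. None was called by edgeR or DESeq2, and 2 were above 0 at an unadjusted p under 0.05 (7.58% of all genes). Without Early BZ replicate 2, 1 was called above 0 (1687 over all genes, in either direction). CCL2, the monocyte-attracting chemokine, had 12.6, 26.1 and 13.2 CPM in Late BZ, 7.15, 2.53 and 6.45 CPM in Late Sham, 28.3, 112 and 45.5 CPM in Early BZ and 7.59, 9.82 and 8.87 CPM in Early Sham. Each Early BZ library was above each Late BZ library, and the difference of responses was -1.19 ± 0.63 (edgeR adjusted p = 0.335). S100A6, a calcium-binding protein, had 55.4, 154 and 101 CPM in Late BZ, 10.5, 7.73 and 3.71 CPM in Late Sham, 30.7, 202 and 82.2 CPM in Early BZ and 12.7, 7.72 and 9.90 CPM in Early Sham. Its difference was 0.44 ± 0.70 (adjusted p = 0.794). S100A12, a neutrophil protein, had 0.347, 1.24 and 0.395 CPM in Late BZ, 0.300, 0 and 0.0686 CPM in Late Sham, 3.17, 5.87 and 3.04 CPM in Early BZ and 0.285, 0.0525 and 0.138 CPM in Early Sham. Its Early response was 4.63 ± 0.94 (edgeR adjusted p = 0.0187), a call lost without any Early Sham library in turn, and its difference of -2.69 ± 1.70 did not pass (adjusted p = 0.425). The median over 8 neutrophil genes was -1.37, with none called by edgeR or DESeq2 and 0 at an unadjusted p under 0.05. Without TMM scaling, summed CPM of 2 neutrophil markers were 1.10 to 3.76 in Late BZ and 0.314 to 0.863 in Late Sham. They were 2.30 to 4.37 in Early BZ and 0.0793 to 0.272 in Early Sham.

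Genes of mitosis and cytokinesis were higher in Late BZ than in any other group on average, and the size of the late response turned on the sham libraries. Of 31 tested, 30 had a positive difference and the median was 1.46. None was called by edgeR, 20 were above 0 at an unadjusted p under 0.05 (7.58% of all genes), and DESeq2 called 1 (382 over all genes). The median response was 1.44 at 1 week, with 21 of 31 called higher (8.66% of all genes), and 0.05 at 1 day, with none called. CDK1, the kinase that drives entry into mitosis, had 40.3, 45.8 and 42.3 CPM in Late BZ, 21.9, 9.998 and 4.19 CPM in Late Sham, 4.18, 2.96 and 11.3 CPM in Early BZ and 6.45, 8.25 and 5.23 CPM in Early Sham. The Late BZ libraries were close to each other and above all others, and the Late Sham libraries ran from the level of the Early groups to about the middle of the range. The CDK1 difference was 1.92 ± 0.68 (edgeR adjusted p = 0.159). TOP2A, the topoisomerase of dividing cells, had 59.6, 54.6 and 53.0 CPM in Late BZ, 30.5, 14.5 and 10.9 CPM in Late Sham, 12.46, 8.18 and 19.7 CPM in Early BZ and 12.6, 12.7 and 9.35 CPM in Early Sham.

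Late Sham replicate 1 was the highest of the 3 Late Sham libraries for both genes. Without it 17 of the 31 mitosis genes had a called difference (505 over all genes), CDK1 at 2.74 (edgeR adjusted p = 0.0255) and TOP2A at 1.93 (adjusted p = 0.0467) among them, and 30 rose at 1 week. Without Late Sham replicate 2 or without Late Sham replicate 3, 4 of the 31 rose at 1 week, and without Late BZ replicate 2 10 did. Without Early BZ replicate 2, 2 had a called difference (1687 over all genes). NUF2, of the kinetochore, and CDCA8, of the chromosomal passenger complex, were the members with the smallest p, at 1.74 ± 0.49 and 2.01 ± 0.65 (edgeR adjusted p = 0.0945 and 0.134). In NUF2 Late BZ was at 19.1, 19.4 and 17.7 CPM, Late Sham at 7.10, 5.87 and 3.30 CPM, Early BZ at 4.10, 5.09 and 8.80 CPM and Early Sham at 5.42, 6.72 and 5.23 CPM. Of 25 DNA replication genes, none had a called difference by edgeR or DESeq2, with 1 above 0 at an unadjusted p under 0.05 (7.58% of all genes). Their median was 0.34, with 7 called higher at 1 week (8.66% of all genes) and none at 1 day. The 7 became 15 without Late Sham replicate 1, 2 without Late Sham replicate 2, 1 without any one Late BZ library and 0 without Late Sham replicate 3.

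**Figure D4:**
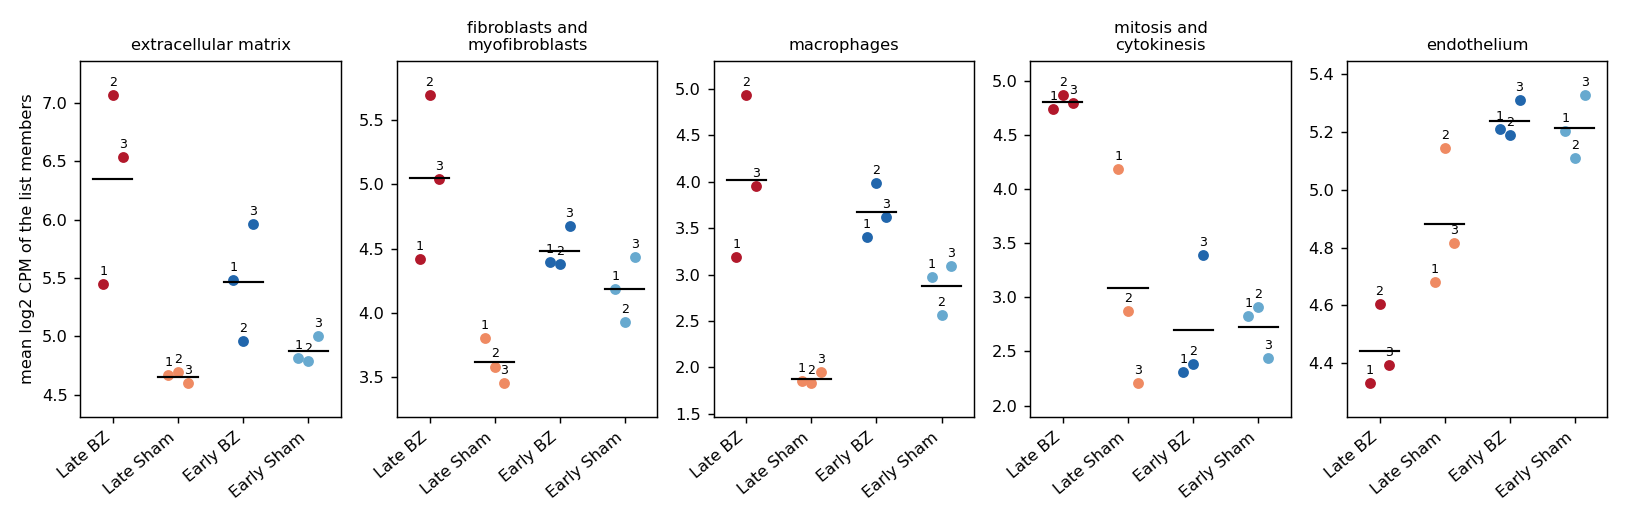
Mean log2 CPM over the tested members of 5 gene lists in each library, with replicate numbers beside the points and a line at the group mean (n = 3 per group). For mitosis the Late BZ libraries lie between 4.75 and 4.87 and Late Sham replicate 1 at 4.19 stands above the other Late Sham libraries, while for macrophages the 3 Late Sham libraries lie together between 1.84 and 1.95.

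Endothelial genes leaned the other way. Of 14 tested, 11 had a difference below 0 and the median was -0.62. None was called by edgeR, 4 were below 0 at an unadjusted p under 0.05 (9.27% of all genes), and DESeq2 called 1 lower (382 over all genes, in either direction). At 1 week 6 fell (6.03% of all genes), TEK, TIE1, NOS3, FLT1, ESAM and KDR, and none rose (8.66%). At 1 day none was called. TIE1, a receptor kinase of endothelial cells, had 20.7, 21.0 and 21.98 CPM in Late BZ, 38.7, 43.3 and 30.2 CPM in Late Sham, 46.1, 60.8 and 49.9 CPM in Early BZ and 49.3, 45.2 and 61.1 CPM in Early Sham. The fold change was -0.82 ± 0.20 at 1 week (edgeR adjusted p = 0.00799) and 0.01 ± 0.20 at 1 day, and the difference was -0.83 ± 0.28 (adjusted p = 0.154). TEK, the angiopoietin receptor, was at -1.74 ± 0.49 (adjusted p = 0.0943), and was called without Late Sham replicate 1 (adjusted p = 0.0195) or Early BZ replicate 2 (0.012), when 2 members of the list were called below 0 in each case. Over all genes these fits called 505 and 1687 differences in either direction. The 6 that fell at 1 week became 0 without Late Sham replicate 2, 2 without Late BZ replicate 2 or Late BZ replicate 3, 3 without Late BZ replicate 1 and 4 without Late Sham replicate 3. PECAM1, the endothelial adhesion molecule, was at 60.8, 83.5 and 81.5 CPM in Late BZ, 76.4, 106 and 72.0 CPM in Late Sham, 186, 288 and 237 CPM in Early BZ and 201, 181 and 179.5 CPM in Early Sham. Both Late groups were below both Early groups, and the difference of responses was -0.51 ± 0.30 (edgeR adjusted p = 0.397).

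In heart muscle genes the differences split. The 14 genes of calcium handling and channels had a median of -0.58, with 11 below 0 and none called by edgeR or DESeq2. Of them, 5 were below 0 at an unadjusted p under 0.05 (9.27% of all genes). ATP2A2, the calcium pump of the sarcoplasmic reticulum, had 889, 645 and 800.1 CPM in Late BZ, 1671, 2723 and 2339 CPM in Late Sham, 1768, 289 and 1899 CPM in Early BZ and 912, 1196 and 702 CPM in Early Sham. Early BZ replicate 2 stood far below the other Early BZ libraries. Its difference was -2.02 ± 0.67 (edgeR adjusted p = 0.145), and -2.49 without Early BZ replicate 2 (adjusted p = 0.0115), when 4 of the list were called below 0. That fit called 1687 differences over all genes. The 18 sarcomere genes had a median of -0.06, with 9 on each side and none called by edgeR. DESeq2 called 1 (382 over all genes), and 2 were above 0 at an unadjusted p under 0.05 (7.58% of all genes). Without Early BZ replicate 2 edgeR called 3 above 0 (1687 over all genes, in either direction). ACTA1, the skeletal actin of fetal and stressed heart, had 11480, 9513 and 11790 CPM in Late BZ, 3475, 2347 and 3245 CPM in Late Sham, 12100, 13190 and 8320 CPM in Early BZ and 13990, 15680 and 5382 CPM in Early Sham. Late Sham alone was low, Late BZ lay among the Early libraries, and the difference was 1.91 ± 0.48 (edgeR adjusted p = 0.065). It was called without Late Sham replicate 1, Early BZ replicate 2 or Early Sham replicate 3 (adjusted p = 0.0322, 0.0157 and 0.0252). MYL4, the atrial and embryonic myosin light chain, had 1718, 3072 and 2757 CPM in Late BZ, 407, 231 and 108 CPM in Late Sham, 171, 2486 and 529 CPM in Early BZ and 809.8, 489 and 668 CPM in Early Sham. Its difference was 2.64 ± 1.00 (adjusted p = 0.184), and 4.24 without Early BZ replicate 2 (adjusted p = 0.0118).

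In 3 further lists the library that stood apart set the sign or size. The median over 26 cytosolic ribosomal protein genes was -0.56, and 0.35 without Early BZ replicate 2. The median over 6 red blood cell genes was -1.25, and 0.52 without it. The median over 9 atrial genes was -0.02, and 0.87 without it. The median over 19 genes of endoplasmic reticulum stress was -0.31. PDIA4, DNAJB11 and CRELD2 were called higher at 1 day (0.647% of all genes) and CHAC1 and PDIA3 at 1 week (8.66%). The 3 Early calls became 0 without any Early Sham library in turn, 1 without Late BZ replicate 2 or 3, 5 without Late Sham replicate 1 or 2, 6 without Early BZ replicate 3 and 10 without Early BZ replicate 1. The 2 Late calls became 0 without Late BZ replicate 2 or 3 or Late Sham replicate 2 or 3, 4 without Late Sham replicate 1 and 11 without Early BZ replicate 2. None of the genes in these 4 lists had a called difference by edgeR or DESeq2. At an unadjusted p under 0.05 there were 4 ribosomal protein genes and 2 endoplasmic reticulum stress genes below 0 (9.27% of all genes). There were also 2 atrial genes above 0 (7.58% of all genes) and 1 below, and 0 red blood cell genes. The 18 other lists had medians from -0.55 to 0.67 and no called member.

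Gene length moved with the difference. With the tested genes cut by length into 5 sets, the median difference was 0.02 in the set of the shortest and -0.19 in the set of the longest. The 20 called genes above 0 had a median length of 4095 bases and the 14 below 0 had 4242 bases against 3885 bases for all genes. The part of length in the list medians was not tested.

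Neither the comparison with Old pigs nor that with the infarct zone called a gene by edgeR. The Late minus Early difference in Young BZ minus that in Old BZ was called for 0 of 14537 genes by edgeR (0%), with 582 at an unadjusted p under 0.05 and a smallest adjusted p of 0.305, and for 1 gene by DESeq2. The Young minus Old value was 1.05 ± 0.79 for THBS4, 1.49 ± 0.90 for CILP, -0.38 ± 1.68 for COL8A2, 0.48 ± 0.63 for SULF2 and -0.29 ± 0.59 for LOXL1. These SEs are too wide to show that the ages acted alike. For ACTA1 the value was 2.28 ± 0.68, which did not pass over all genes. In the 12 BZ and IZ libraries of the 6 infarcted Young pigs, with the pig as a block, the Late minus Early change in BZ minus that in IZ was called for 0 of 13684 genes by edgeR (0%), with 1115 at an unadjusted p under 0.05, and for 116 by DESeq2. It was -0.49 ± 0.71 for THBS4, -0.99 ± 0.72 for CILP, 0.04 ± 0.89 for COL8A2, -1.01 ± 0.41 for MFAP4 and -1.86 ± 0.37 for C1QB. Only 4 residual degrees of freedom stand behind these zone values.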

How the data were processed

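Stranded TruSeq libraries of polyA RNA from heart tissue were sequenced in pairs of 76 bp, per the labels' protocols. The submitters' processing notes name Trimmomatic 0.36, Subread 1.5.1 with featureCounts, STAR and bcl2fastq 2.19.0.316. The genome build, annotation and strand setting are not given in the sources used here. The deposited table holds raw counts per gene, with no normalization by the authors. Symbols were matched for 14857 of 25880 identifiers.

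Genes were kept by filterByExpr (minimum count 10, minimum total 15), scaled by TMM and tested by the robust quasi-likelihood method of edgeR 4.0.16 (R 4.3.3) over 36 libraries in 12 groups (24 residual degrees of freedom), with Benjamini-Hochberg adjustment over 14537 genes. Calls needed an adjusted p under 0.05. SE is the size of the log2 value over the root of F. The fit takes the BZ and IZ of a pig as independent. The scripts were tested on simulated data. DESeq2 1.42.0 and limma 3.58.1 served as alternatives. Named genes are a part of 129 chosen by rule (largest called changes, the smallest p per list, a panel), and CRMP1, FGFRL1, MAPK7, AIG1, PITPNC1, COMP, COL11A1 and FMOD were added after their values were seen, as were list members named only by their calls. The comparison studied, the genes and the 34 gene lists were chosen with earlier results of these data known, and lists carry counts and medians with no test. Depth was 8.1 to 39.8 M counts per library, and genes with few counts have wide errors. Not every list member that was called is reported here by name.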

Additional observations from a re-analysis of the deposited data

Results flagged for a closer look

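The difference of responses (Young BZ over Sham, Late minus Early, log2) passed the test of the difference itself in 27 genes with a symbol, and each value is given here for that reason. Among matrix genes these were COL8A2 at 6.03, CHAD at 5.51, CILP at 4.95, THBS4 at 4.52, SULF2 at 2.56, MFAP4 at 2.38 and LOXL1 at 2.27. Among the other genes above 0 were CRABP2 at 5.54, IGF1 at 3.77, CRMP1 at 3.73, MLLT11 at 2.74, MEOX1 at 2.60, CNN1 at 2.27, FGFRL1 at 1.69, MAPK7 at 1.60 and AIG1 at 1.32. Below 0 were PITPNC1 at -2.63, NSG1 at -2.14, RSAD1 at -2.06, HAPLN3 at -1.70, CHD6 at -1.55, CLEC14A at -1.45, ACSF2 at -1.23, RXRB at -1.11, SUPT6H at -1.01, CNOT1 at -0.95 and SF3A1 at -0.88. With genes without a symbol counted, Late BZ was called higher than Early BZ in 14 of the 20 above 0. It was called lower in 7 of the 14 below 0. THBS4, CILP, COL8A2, CHAD and SULF2 alone kept their call without each library in turn. None of them was called when the 12 Young BZ and Sham libraries were fitted alone.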

How the results depend on the processing

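The direction of all 34 called differences held in every alternative in which they could be fitted (33 of 33 in the fit of the 12 libraries alone), while counts of calls moved. Against 34 called differences, DESeq2 gave 382, no count filter 19, the 12 Young BZ and Sham libraries alone 1, the 24 BZ and Sham libraries 12, RIN as a covariate 8, batch 1 alone 221 and leaving out mitochondrially encoded genes 55. Against 2135 Late calls, the 12 libraries gave 298, batch 1 752 and a minimum log2 change of 1 gave 1330. Against 130 Early calls, DESeq2 gave 557, no filter 39, the 12 libraries 0, the 24 libraries 13, RIN 23, batch 1 66, the minimum change 82 and sex as a term 273. For Late Sham over Early Sham (1335), DESeq2 gave 2051, the 12 libraries 0, a batch term 779, RIN 602, the minimum change 848 and sex 348. For Late BZ over Early BZ (988), the 12 libraries gave 80, the 24 libraries 600, a batch term 403 and batch 1 172. DESeq2 gave 1 for Young minus Old and 116 for BZ minus IZ, against 0 each. The sex term was chosen after seeing the data. The cause was not tested.

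No paired analysis was possible because BZ and Sham came from different pigs and the labels give no replicate numbers that pair them. In limma-voom with a random replicate block for the pig, which joins the BZ and IZ of a pig, the counts were 6 for the difference, 1372 Late, 22 Early and 584 for Sham, and the list medians were -0.14 for calcium handling, 0.37 for atrium and 0.27 for red blood cells. Of the 34, the 6 called there were THBS4, CILP, SULF2, MFAP4, MLLT11 and 1 gene without a symbol, so every other gene named as called, COL8A2 and CHAD included, lost its call. BZ minus IZ without the block also called 0 genes.

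Leaving out 1 library in turn gave 5 to 1687 called differences, 678 to 3225 Late, 11 to 945 Early, 208 to 3030 Sham and 469 to 1970 BZ calls, and 0 for Young minus Old. List medians then ran from 0.27 to 0.61 for smooth muscle, 0.74 to 2.03 for macrophages, -2.005 to -0.96 for neutrophils, 1.06 to 2.15 for mitosis, -0.98 to -0.27 for calcium handling, -0.26 to 0.45 for sarcomere, -0.43 to -0.043 for endoplasmic reticulum stress, -0.80 to 0.35 for ribosomal proteins, -0.56 to 0.87 for atrium and -1.71 to 0.52 for red blood cells. Without Early BZ replicate 2 and Late Sham replicate 2 together, an alternative chosen after seeing the data, there were 334 called differences and 198 Early calls, and medians of 0.66 for smooth muscle, -0.76 for neutrophils, 0.30 for sarcomere, -0.059 for endoplasmic reticulum stress, 0.35 for ribosomal proteins, 0.84 for atrium and 0.16 for red blood cells.

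With RIN, medians were 0.10 for crosslinking, 0.81 for fibroblasts, 0.65 for smooth muscle, -2.12 for neutrophils, -0.40 for acute inflammation and -0.13 for calcium handling, and with the 24 libraries -0.20 for calcium handling. In batch 1 alone they were 0.54 for neutrophils, 0.52 for acute inflammation, -0.89 for endothelium, -0.065 for endoplasmic reticulum stress, 0.95 for atrium and 1.08 for red blood cells. The S100A12 difference turned to 1.70 in batch 1 alone, and that of TIMP1 to 0.18 without Early BZ replicate 2 and 0.045 without both libraries; without Late BZ replicate 2 the TIMP1 difference was -1.43. Batch fits were not run for Young minus Old, since batch 3 holds only Old Late libraries. Depth limits genes with few counts, such as COL8A2 and CRABP2 in sham hearts.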
